A study of Rattus norvegicus with 5 samples.

Results

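NMDA receptors are glutamate-gated channels that let calcium into neurons. Each channel is built around the obligatory GluN1 subunit, encoded by Grin1, together with GluN2 subunits (Grin2a to Grin2d), which set its kinetics and its sensitivity to magnesium, or GluN3 subunits (Grin3a and Grin3b), which lower its calcium flow. Granule cells of the cerebellum are known for an exchange of these subunits: migrating cells carry GluN2B, which gives way to GluN2A and GluN2C once mossy fibres contact the cells. The genes described here were all 7 Grin genes, taken by name, out of 14217 genes named on the arrays. The choice was made with earlier results of these data known. They had 13 Affymetrix probe sets of 31042 and 6 two-colour probes of 20500, and Grin2b had no two-colour probe under this name.

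Granule cells were cultured from the cerebellum of Wistar rats 8 days after birth in medium with 25 mM KCl, and all cultures received 10 µM cytosine arabinoside, which acts on dividing cells such as glia, from late on the first day. Cultures were harvested on day 1 (D1) or on day 5 (D5), or on day 5 following daily additions of 10 µM ICRF-193 (D5+), a drug that inhibits topoisomerase II and leads to the loss of topo IIβ protein. The arrays carry no measurement of that protein. Each RNA went onto 1 Affymetrix array, and a separate pair of two-colour arrays compared D5, labelled with Cy5, with D1 and with D5+, labelled with Cy3. No difference has a replicate check, since each condition has 1 array of a kind, so no p-value was computed and precision is limited by the number of arrays. In place of replicates, the spread of log2 ratios between probe sets of the same gene is given as a measure of noise. For D5/D1 this SD was 0.84 for mean signals of 10 to 20, 0.50 for 20 to 50, 0.30 for 50 to 200 and 0.22 for 200 to 1000. It leaves out any variation of the culture or the RNA.

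Signals below the 40th percentile of their array were taken as low, and this floor was 19.2 for D1, 16.7 for D5 and 16.3 for D5+. A ratio was read only where at least 1 of its 2 signals reached this floor, and a change was counted from 2-fold on. For a gene that reached the floor on the higher array alone, the direction was in part fixed by this filter, also in the counts of gene lists. Over all probe sets read in this way log2 D5/D1 had a median of -0.22 and log2 D5+/D5 one of -0.10, so values of single genes are to be read against these shifts. Both ratios share the D5 array, so noise on that array moves them in opposite directions. Of the markers of granule neurons, 13 of 13 genes on the array were above the floor at D5. Among them, 4 were past 2-fold higher at D5 than at D1 and 3 lower, where 9.27% and 11.8% of all genes were. Gabra6, the GABA-A subunit of mature granule cells, had signals of 84.5 at D1, 962.7 at D5 and 686.4 at D5+. Rbfox3 went the other way between D1 and D5, with 501.4 at D1, 78.8 at D5 and 82.4 at D5+. Astrocyte markers were also present. In bulk RNA, fewer cells of a type and less RNA per cell cannot be told apart.

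Grin1, Grin2a, Grin2b and Grin2c had signals above the floor, while Grin2d, Grin3a and Grin3b stayed under it on all 3 arrays. Between D1 and D5 Grin1 and Grin2c were more than 2-fold higher and Grin2b was more than 2-fold lower, and with ICRF-193 Grin2a was more than 2-fold lower. Of the 8 probe sets that could be read for D5/D1, 3 were past 2-fold higher, where 9.10% of all probe sets were, and 1 was past 2-fold lower, where 13.3% were. Of the 7 that could be read for D5+/D5, 2 were past 2-fold lower, both of Grin2a, against 6.51% of all probe sets, and 0 were past 2-fold higher, against 3.98%. Some of these probe sets reached the floor on the higher array alone, so their difference was in part fixed by that filter, and they are named below.

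**Figure D1:**
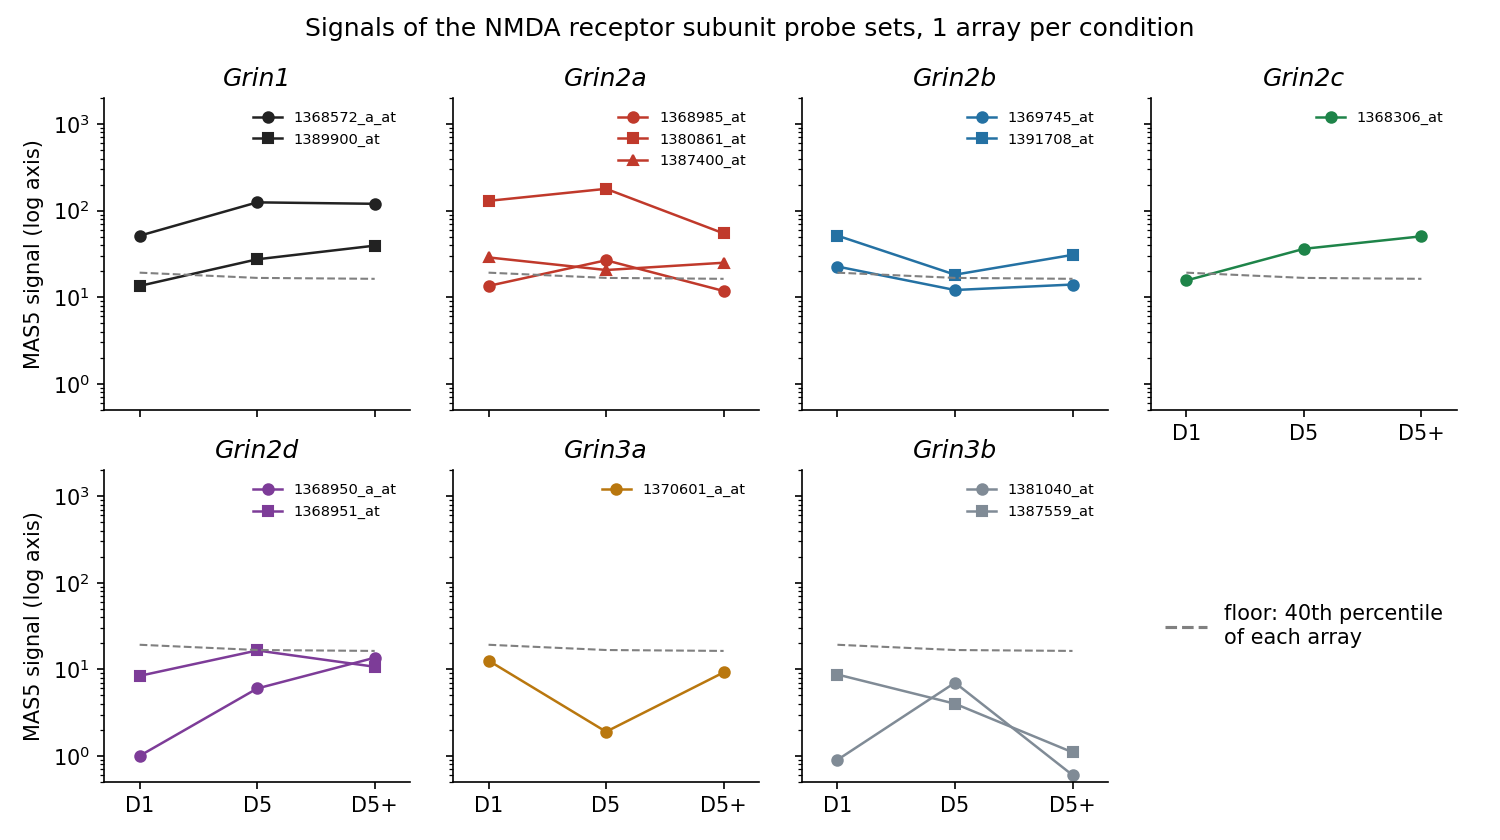
MAS5 signal (log axis) of every Grin probe set on the D1, D5 and D5+ arrays, with 1 array per condition and the floor of each array as a broken line. Signals of Grin1 and Grin2c are higher at D5 and D5+ than at D1, those of Grin2b are lower, the brightest Grin2a probe set drops to 54.6 at D5+, and Grin2d, Grin3a and Grin3b lie under the line.

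Grin1, the subunit that every NMDA receptor needs, was higher at D5 and stayed high with ICRF-193. The brighter of its probe sets (1368572_a_at) had signals of 51.3 at D1, 124.6 at D5 and 119.9 at D5+, all above the floor. Its D5/D1 ratio was 2.43, or 1.28 on the log2 scale, against a noise SD of 0.30, and it lay above 93.4% of the probe sets read. The D5+/D5 ratio was 0.962, or -0.06 on the log2 scale against a noise SD of 0.27. Among probe sets of mean signal 50 to 200, 8.08% were past 2-fold higher and 9.93% lower at D5. Signals of D5 and D5+ were thus closer to each other than this noise, while that of D1 stood apart. This probe set matches several transcript forms of the gene, so splice forms of Grin1 are not told apart. The second probe set (1389900_at), designed on an expressed sequence tag, had 13.5 at D1, under the floor, 27.4 at D5 and 39.4 at D5+, the same order of D1 below D5. On the two-colour arrays the log ratio of Grin1 was 0.96 for D5 over D1, a value exceeded by 750 of 20438 probes, and -0.14 for D5 over D5+. The D5+ difference was therefore small on both array types, and its sign differed between them as deposited but not with the Affymetrix arrays scaled to equal medians.

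Grin2c, the subunit of slow, weakly magnesium-blocked receptors in mature granule cells, had its lowest signal at D1 and its highest at D5+. Its single probe set (1368306_at) had 15.6 at D1, under the floor, 36.2 at D5 and 50.5 at D5+. The D5/D1 ratio was 2.32, or 1.21 on the log2 scale against a noise SD of 0.50. The D5+/D5 ratio was 1.40, or 0.48 on the log2 scale against a noise SD of 0.45. Among probe sets of mean signal 20 to 50, 9.00% were past 2-fold higher at D5 and 4.39% at D5+, so a D5/D1 ratio of this size was not rare at such signals. With the floor added to all signals of an array, which damps ratios of dim probe sets, its log2 D5/D1 was 0.60 and no longer past 2-fold. The two-colour log ratio was only 0.12 for D5 over D1, less than the SD of 0.31 between probes of the same gene, and -0.43 for D5 over D5+, against an SD of 0.23. On both array types Grin2c was thus lower in D5 than in D5+, and the size of its difference from D1 was not the same on them. Of 10 markers of endothelial, mural and meningeal cells, 4 were past 2-fold higher with ICRF-193 and 0 lower, where 3.18% and 5.91% of all genes were. The 12 on the array summed to 532.8 at D1, 1725.8 at D5 and 4136.8 at D5+, an order shared with Grin2c. Most of this sum came from a few genes, such as Col3a1 (127.8, 841.1 and 2212.3) and Col1a1 (43.6, 306.7 and 982.1). Of the endothelial markers, Kdr (28.1, 18.7 and 15.3) and Cldn5 (38.1, 7.3 and 8.2) were highest at D1. The D5+ signals of Kdr and Cldn5 and the D5 signal of Cldn5 were under the floor. Flt1 (12.8, 10.3 and 36.2) was highest at D5+. It is among the 4 counted as higher and reached the floor at D5+ alone. Tek reached the floor at D5 alone and Pecam1 on no array. Single markers of other cells also had the order of Grin2c. Among them were Cbln1 of granule neurons (801.3, 1105.0 and 1768.5) and S100b of astrocytes (120.8, 339.3 and 512.9). The summed signals of the granule neuron and astrocyte lists did not have it. The part of any of these cells in the Grin2c values was not tested.

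Grin2b, the subunit of immature granule cells, had its highest signal at D1 on both of its probe sets. The brighter one (1391708_at), designed on an expressed sequence tag, had 51.4 at D1, 18.2 at D5 and 30.8 at D5+. Its D5/D1 ratio was 0.354, or -1.50 on the log2 scale against a noise SD of 0.50, and 5.9% of the probe sets read had a lower ratio. Its D5+/D5 ratio was 1.69, or 0.76 on the log2 scale against a noise SD of 0.45, so the D5+ signal lay between those of D5 and D1. The other probe set (1369745_at) had 22.6 at D1, 12.1 at D5 and 14.0 at D5+, the last 2 under the floor, and a D5/D1 ratio of 0.535. Among probe sets of mean signal 20 to 50, 15.5% were past 2-fold lower at D5 and 6.90% at D5+. All 4 values at D5 and D5+ lay below the D1 value of their own probe set, and no two-colour value stands beside them. Markers of granule cell precursors, the dividing cells from which granule neurons come, also had their highest summed signal at D1, with 5052.4 at D1, 2091.8 at D5 and 1770.3 at D5+. Of 8 precursor markers read, 6 were past 2-fold lower at D5 and 0 higher, where 11.8% and 9.27% of all genes were. With ICRF-193, 2 of 8 were past 2-fold lower and 0 higher, where 5.91% and 3.18% of all genes were. Grin2b was instead higher at D5+ than at D5. The part of precursor cells in the Grin2b values was not tested.

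Grin2a, the subunit of fast receptors at mature synapses, was the member with the largest drop with ICRF-193 among those above the floor. Its brightest probe set (1380861_at), designed on an expressed sequence tag, had 129.6 at D1, 178.6 at D5 and 54.6 at D5+, all above the floor. The D5+/D5 ratio was 0.306, or -1.71 on the log2 scale against a noise SD of 0.27, and only 2.2% of the probe sets read were lower. Of all probe sets of mean signal 50 to 200, 4.41% were past 2-fold lower at D5+ and 1.31% higher. The D5/D1 ratio of 1.38, or 0.46 on the log2 scale against a noise SD of 0.30, did not reach 2-fold. The D5+ signal was thus below that of D1 as well, with a D5+/D1 ratio of 0.421.

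The other Grin2a probe sets were dimmer and did not behave alike. One (1368985_at) had 13.5 at D1, 26.7 at D5 and 11.8 at D5+, so that it passed the floor at D5 alone. Its D5/D1 ratio was 1.98, just short of 2-fold as deposited and past it under each of the 3 other scalings of the arrays, and its D5+/D5 ratio was 0.442, against a noise SD on the log2 scale of 0.74. The third (1387400_at) had 28.8 at D1, 20.6 at D5 and 25.0 at D5+, with neither ratio past 2-fold and both of opposite direction to the brightest one. On the two-colour arrays the log ratio of Grin2a was 0.54 for D5 over D1 and 1.28 for D5 over D5+. The latter was exceeded by 107 of 20404 probes and was large beside the SD of 0.23 between probes of the same gene. It corresponds to 2.43-fold if the values are log2 and to 3.59-fold if they are natural logs, as no source used here gives their base. The lower Grin2a signal with ICRF-193 therefore rests on the brightest Affymetrix probe set and the two-colour probe. The dim probe set 1368985_at adds little, since it passed the floor at D5 alone and its log2 D5+/D5 was -0.63 with the floors added.

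**Figure D2:**
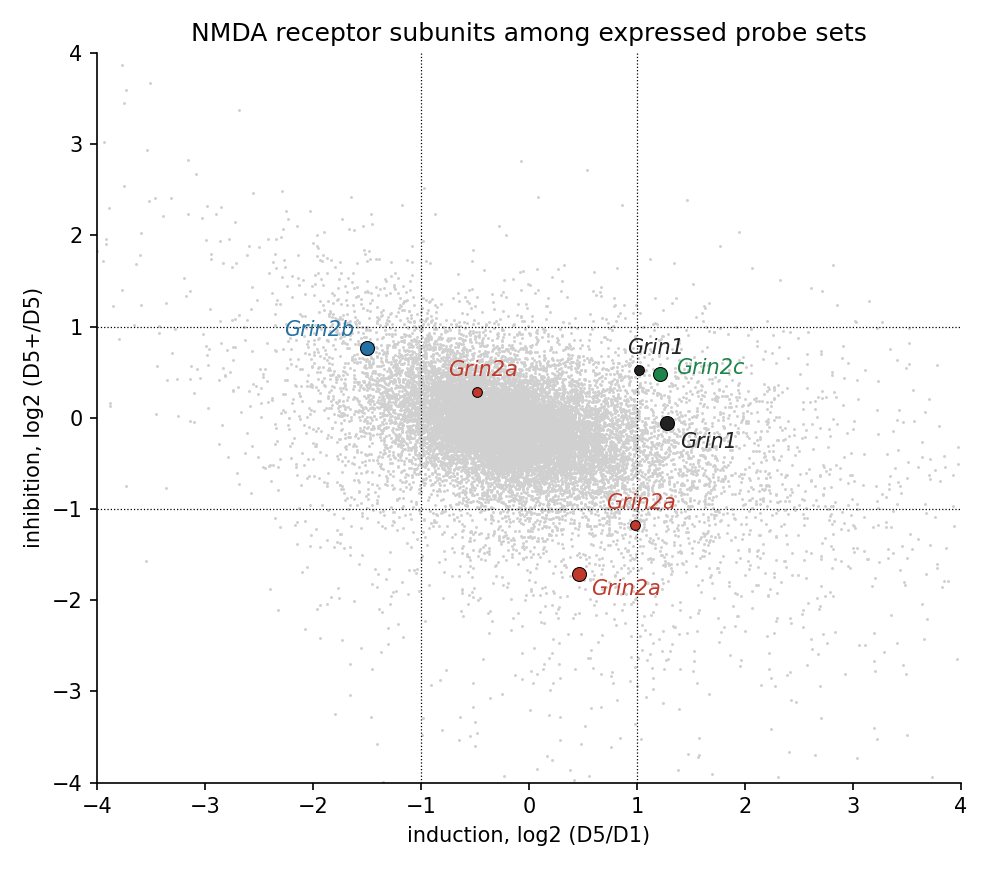
Induction (log2 D5/D1, horizontal) against inhibition (log2 D5+/D5, vertical) for all probe sets that could be read in both ratios (grey) and for the Grin probe sets (coloured, larger for the brightest of a gene). Dotted lines mark 2-fold, points beyond 4 on either axis are not drawn, and the dimmer Grin2b probe set is left out because its D5+/D5 could not be read. Grin1 and Grin2c lie to the right of 2-fold induction without inhibition, Grin2b to the left, and the brightest Grin2a probe set at -1.71 on the vertical axis.

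Among the remaining subunits all signals were under the floor, so no fold is given. Grin2d, a subunit of early development and of interneurons, had signals of 1.0 at D1, 6.0 at D5 and 13.6 at D5+ on one probe set (1368950_a_at) and of 8.4 at D1, 16.5 at D5 and 10.7 at D5+ on the other (1368951_at). Grin3a, a subunit of juvenile neurons, had 12.6 at D1, 1.9 at D5 and 9.2 at D5+. Grin3b, best known from motor neurons, had 0.9 at D1, 7.0 at D5 and 0.6 at D5+ on one probe set (1381040_at) and 8.7 at D1, 4.0 at D5 and 1.1 at D5+ on the other (1387559_at). Probe sets of the same gene did not keep the same order of the arrays here. The two-colour log ratios of D5 over D1 were -0.03 for Grin2d, -0.35 for Grin3a and 0.13 for Grin3b. For D5 over D5+ they were 0.02, -0.24 and -0.51 in the same order.

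Since levels of different probe sets cannot be set against each other, their shifts relative to each other were described by the difference between their log2 ratios, from which the scaling of the arrays cancels. Between D1 and D5 Grin2c moved against Grin2b by 2.71 on the log2 scale, or 6.55-fold, with a noise SD of 0.71 for such a difference. Grin2a moved against Grin2b by 1.96, or 3.89-fold, with a noise SD of 0.58, and Grin1 against Grin2b by 2.78, or 6.86-fold. Grin1 and Grin2c differed by only 0.07 in log2 D5/D1. All 3 differences subtract the same Grin2b ratio of -1.50, while the median of all probe sets was -0.22, so they are not independent of each other. They rest on the dim signals of Grin2b and, for Grin2c, on a D1 signal under the floor, and Grin2c against Grin2b was 1.62 with the floors added. On the two-colour arrays Grin1 exceeded Grin2c by 0.84 in the log ratio of D5 over D1, so the near equality of these genes was not seen there.

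With ICRF-193 the order of the subunits was another one. The log2 D5+/D5 of Grin2a minus that of Grin2c was -2.19, or 4.56-fold, with a noise SD of 0.52. Grin2a minus Grin2b was -2.47, or 5.54-fold, and Grin1 minus Grin2a was 1.65, or 3.15-fold, so Grin2a was the lowest of the 4. On the two-colour arrays Grin2a exceeded Grin2c by 1.71 and Grin1 by 1.42 in the log ratio of D5 over D5+, the same direction on the other array type. Grin2b and Grin2c differed by only 0.28 in log2 D5+/D5, with a noise SD of 0.64. Set against D1, the D5+ signal was 2.34-fold for Grin1, 3.24-fold for Grin2c, 0.599-fold for the brighter probe set of Grin2b and 0.421-fold for the brightest of Grin2a. Grin1, Grin2b and Grin2c thus kept at D5+ the direction from D1 that they had at D5, while the brightest probe set of Grin2a did not.

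**Figure D3:**
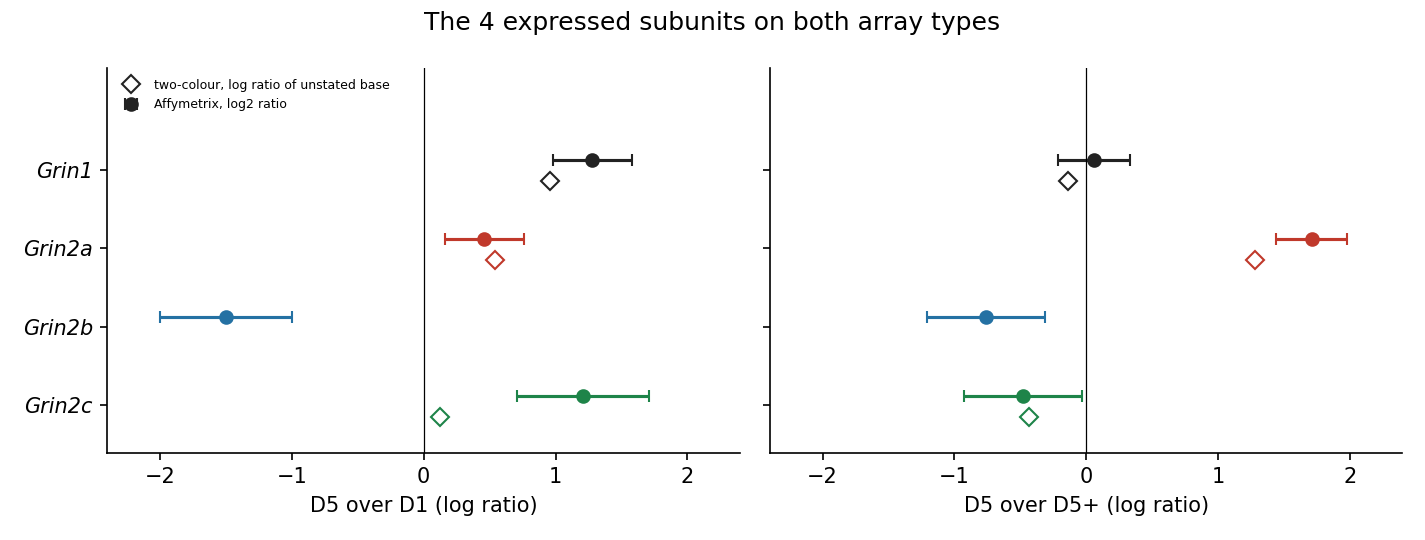
Log ratios of the 4 measured subunits for D5 over D1 (left) and D5 over D5+ (right). Filled points are the log2 ratio of the brightest Affymetrix probe set, with bars of 1 noise SD between probe sets of the same gene, and open diamonds are two-colour log ratios of unstated base, which Grin2b lacks. Of 6 pairs of values, 5 have the same sign, the exception being Grin1 for D5 over D5+.

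Glial and other neuronal markers were followed beside these values, since Grin2a and Grin2c are not confined to granule cells. Of 12 astrocyte markers that could be read, 8 were past 2-fold lower with ICRF-193 and 0 higher, where 5.91% of all genes were lower. The summed signal of the 15 astrocyte genes on the array was 4818.3 at D1, 6836.2 at D5 and 3457.3 at D5+. Gfap, the intermediate filament of astrocytes, had 1016.1 at D1, 1511.9 at D5 and 167.0 at D5+. Ntsr2, among the lower ones, reached the floor at D5 alone. S100b (339.3 at D5 and 512.9 at D5+), Gja1 (921.2 and 1062.8) and Hopx (277.0 and 403.0) were higher at D5+, short of 2-fold. Oligodendrocyte lineage markers summed to 2731.9 at D1, 1803.9 at D5 and 2733.6 at D5+. Of 8 read with ICRF-193, 1 was past 2-fold higher and 0 lower. Microglia markers summed to 928.9 at D1, 1155.4 at D5 and 869.4 at D5+. Markers of Purkinje cells, interneurons and unipolar brush cells summed to 2907.0 at D1, 1603.8 at D5 and 1502.0 at D5+. With ICRF-193, 4 of 12 were past 2-fold higher, where 3.18% of all genes were, and 2 were lower. The higher ones included Eomes, at 245.7 (D1), 20.4 (D5) and 83.2 (D5+), and Pcp4, at 1421.5, 94.1 and 367.3 in the same order. Somatostatin (Sst), at 480.2, 577.5 and 134.6, was among the lower ones. Granule neuron markers summed to 10829.5 at D1, 8993.0 at D5 and 9325.0 at D5+, with 1 of 13 past 2-fold higher with ICRF-193 and 0 lower. The astrocyte sum and the brightest Grin2a probe set were thus both lower at D5+ than at D5, and the granule neuron sum was not. The part of these cells in the Grin2a values was not tested.

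The upstream sequence is shown for Grin1 and Grin2c, the subunits that were both past 2-fold higher at D5 and not lower with ICRF-193. The set of promoter sequences at hand (GRCr8) covered 4 of the 7 genes, a limit of that set and not of the genome annotation. The 250 bases before the gene start are given 5′ to 3′ on the strand of the gene. Capitals mark E-boxes (CANNTG, the site of NeuroD and other basic helix-loop-helix factors) and core sites of nuclear factor I (TTGGC, on either strand). Both lie on the minus strand, at chr3:28528755-28529004 for Grin1 and at chr10:101005139-101005388 for Grin2c.
Grin1: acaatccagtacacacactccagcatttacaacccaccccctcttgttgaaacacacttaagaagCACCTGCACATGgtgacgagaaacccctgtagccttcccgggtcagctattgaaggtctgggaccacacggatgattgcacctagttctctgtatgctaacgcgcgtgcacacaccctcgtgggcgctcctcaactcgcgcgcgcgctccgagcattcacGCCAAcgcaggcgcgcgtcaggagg
Grin2c: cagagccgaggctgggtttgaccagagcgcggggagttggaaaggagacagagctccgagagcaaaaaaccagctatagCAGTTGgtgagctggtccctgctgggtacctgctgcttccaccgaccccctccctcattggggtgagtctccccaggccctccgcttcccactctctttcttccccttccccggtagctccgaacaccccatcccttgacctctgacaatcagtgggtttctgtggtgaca

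Grin1 held 2 E-boxes side by side, starting 185 and 179 bases before the start, and Grin2c held 1, at 171 bases. An E-box was found in 65.2% of all 27457 promoters of the same length. Grin1 also held 1 nuclear factor I core site at 25 bases, a motif found in 40.3% of promoters, and Grin2c held none in this window. GC boxes (GGGCGG on either strand, in 32.4% of promoters) and the ETS core CCGGAA (on either strand, in 13.4%) were found in neither. Such matches describe letters in the sequence and not binding.

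Genes of proteins that have been tied to the exchange of Grin subunits included several with lower signals at D5, at D5+ or both. Of 15 such genes that could be read, 4 were past 2-fold lower at D5, where 11.8% of all genes were, and 1 was higher, where 9.27% were. With ICRF-193, 5 of 13 were past 2-fold lower, where 5.91% of all genes were, and 1 was higher, where 3.18% were. Grm5 (8.8 at D1, 20.4 at D5 and 10.1 at D5+) reached the floor at D5 alone. It is the 1 gene counted as higher at D5 and is among those counted as lower with ICRF-193. Nfia, a nuclear factor I protein, a family that in mouse granule cells acts on late genes such as Grin2c, had 1226.6 at D1, 237.2 at D5 and 165.6 at D5+. Nfib of the same family had 2114.7 at D1, 819.4 at D5 and 138.0 at D5+, and its two-colour median of 2.08 for D5 over D5+ had the same direction. Ezh2, the methyltransferase of Polycomb repression, had 221.2 at D1, 49.5 at D5 and 63.1 at D5+. Erbb4, a receptor of neuregulin, had 71.3 at D1, and 5.6 at D5 and 0.6 at D5+, both under the floor. Etv1, an ETS factor known to act on Grin2c in mouse granule cells, had 169.0 at D1, 314.0 at D5 and 469.2 at D5+, with neither ratio past 2-fold. Etv1 falls outside the rule for named genes and was chosen after its values were seen. Its two-colour median for D5 over D5+ was 0.11, opposite in sign to its Affymetrix ratio. Nfia and Nfib had their highest signal at D1 and their lowest at D5+.

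Genes of scaffold proteins that hold NMDA receptors at the synapse had higher signals at D5 in several cases. Of 16 that could be read, 5 were past 2-fold higher at D5 and 1 lower, and with ICRF-193 3 of 17 were past 2-fold lower and 1 higher, against the shares of all genes given above. Dlg4 (PSD-95), which binds the GluN2 tails, had 136.7 at D1, 302.1 at D5 and 212.6 at D5+. Dlgap1, which links it to the Shank proteins, had 119.5 at D1, 693.0 at D5 and 141.0 at D5+, and its two-colour medians were 1.42 for D5 over D1 and 1.37 for D5 over D5+. Nefl, a neurofilament protein that binds GluN1, had 71.8 at D1, 531.5 at D5 and 179.4 at D5+, with two-colour log ratios of 2.53 for D5 over D1 and 1.42 for D5 over D5+. Actn2, an actinin that binds GluN1, had 1.0 at D1, 102.0 at D5 and 1.8 at D5+, with only the D5 signal above the floor. Its two-colour median for D5 over D5+ was -0.05 and did not show this drop. Dlgap1 and Nefl were thus more than 2-fold lower at D5+ than at D5, where Grin1 was not, with the D5+ signal of Dlgap1 close to that at D1 and that of Nefl above it.

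Genes of receptor transport were few. Of 6 that could be read for D5/D1, 2 were past 2-fold higher and 1 lower, where 9.27% and 11.8% of all genes were. For D5+/D5 0 of 6 were past 2-fold in either direction, which does not set them apart from all genes, of which 3.18% were higher and 5.91% lower. Apba1 (Mint1), part of the complex that carries GluN2B along dendrites, had 523.5 at D1, 1048.8 at D5 and 557.7 at D5+, and Lin7b of the same complex had 26.3 at D1, 120.7 at D5 and 71.6 at D5+. The two-colour log ratio for D5 over D1 was 0.51 for Apba1 and only 0.10 for Lin7b. Cask, which joins both, had 421.6 at D1, 158.6 at D5 and 83.2 at D5+, although its two-colour log ratios were only 0.10 for D5 over D1 and 0.17 for D5 over D5+. Cask therefore differed in direction from Apba1 and Lin7b between D1 and D5 on the Affymetrix arrays, a difference that the two-colour arrays did not show. Lin7c (219.6 at D1, 187.6 at D5) and Snx27 (204.0 at D1, 172.8 at D5) were also lower at D5, short of 2-fold. Lin7a (134.6 at D1, 266.6 at D5) was higher, just short of 2-fold. Their two-colour log ratios for D5 over D1 were -0.24 for Lin7c, 0.05 for Snx27 and 1.07 for Lin7a. All of these genes fall outside the rule for named genes.

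Kinases and phosphatases of the receptor included genes that were low at D5+, as Grin2a was. Of 22 that could be read, 5 were past 2-fold higher at D5 and 3 lower, where 9.27% and 11.8% of all genes were. Akap5 (7.7 at D1, 24.6 at D5 and 13.9 at D5+), among the higher ones, reached the floor at D5 alone. With ICRF-193, 4 were past 2-fold lower and 1 higher, where 5.91% and 3.18% of all genes were, so that the lower count at D5 and the higher count at D5+ were near these shares. Ptpn5 (STEP), the phosphatase that acts on GluN2B, had 194.2 at D1, 400.8 at D5 and 83.0 at D5+, with two-colour log ratios of 1.30 for D5 over D1 and 2.0 for D5 over D5+. Camk2d, a subunit of calcium/calmodulin-dependent kinase II, had 1169.9 at D1, 2857.2 at D5 and 824.8 at D5+. Camk2b, another subunit of this kinase, had 213.0 at D1, 874.0 at D5 and 643.2 at D5+, while its two-colour log ratio of -1.01 for D5 over D5+ put it higher in D5+. Prkcb, a protein kinase C, had 1403.6 at D1, 456.9 at D5 and 600.2 at D5+. Ptpn5 and Camk2d were thus lower at D5+ than at D1, while Camk2b was higher.

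Genes that act downstream of calcium entry had counts near those of all genes. Of 10 that could be read, 2 were past 2-fold higher at D5 and 2 lower, where 9.27% and 11.8% of all genes were, and with ICRF-193 1 of 9 was higher and 0 lower, where 3.18% and 5.91% were. Bdnf, a neurotrophin whose gene responds to calcium, had 21.1 at D1, 103.4 at D5 and 69.4 at D5+. Rasgrf1, a Ras exchange factor that binds GluN2B, had 53.9 at D1, 154.2 at D5 and 425.1 at D5+. Its two-colour log ratio was -0.23 for D5 over D1, opposite in sign to the Affymetrix ratio. For D5 over D5+ it was -0.20, of the same sign though small. The calcium/calmodulin kinase kinases Camkk1 (100.4 at D1, 43.8 at D5 and 51.8 at D5+) and Camkk2 (54.7 at D1, 8.8 at D5 and 17.5 at D5+, the D5 signal under the floor) were highest at D1.

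**Figure D4:**
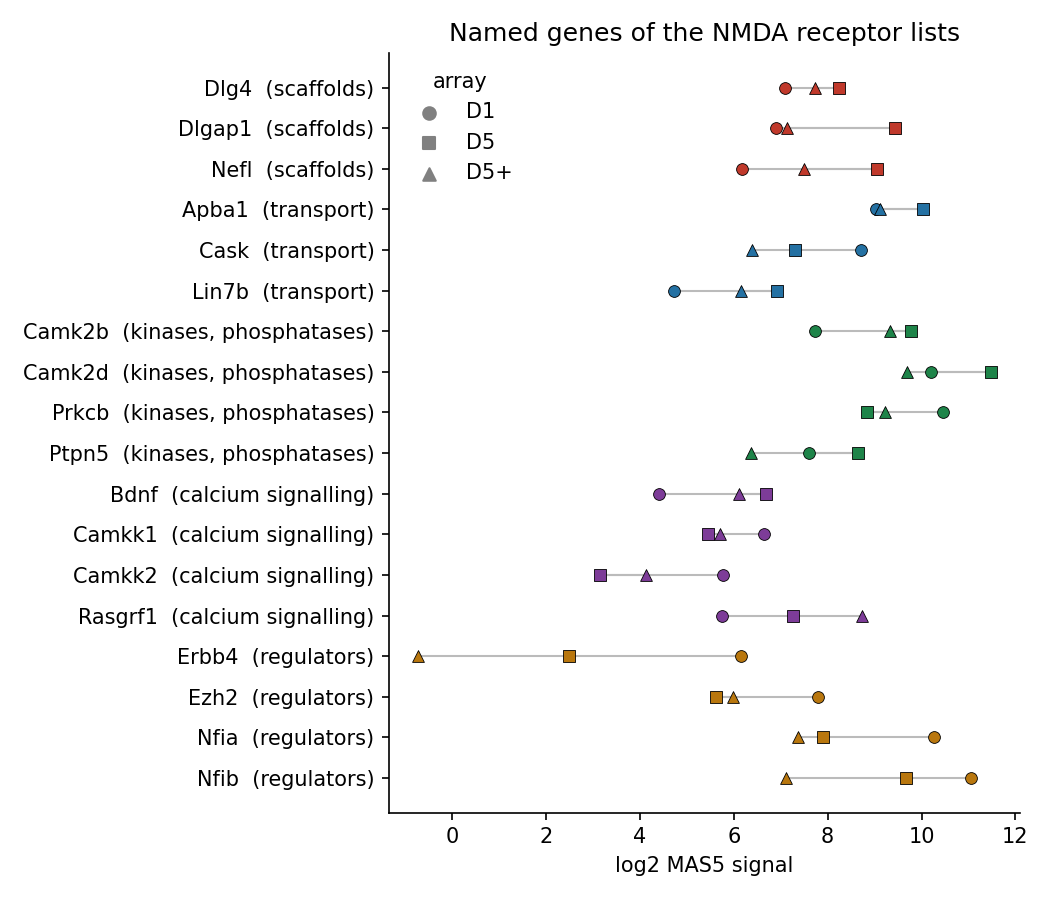
Log2 MAS5 signal at D1 (circles), D5 (squares) and D5+ (triangles) of the named genes of 5 lists around the NMDA receptor, leaving out Actn2. Dlgap1, Ptpn5 and Camk2d have the square farthest to the right, with the circle and the triangle to its left, while Nfia and Nfib have the circle farthest to the right.

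The genes nearest to each measured subunit in the plane of both ratios were looked up among genes with a signal of at least 100 on 1 or more of the 3 arrays. For Grin1 they were Cerk, Adap1 and Ndrg3, at distances of 0.039, 0.070 and 0.075 in log2 units. For Grin2a they were Dtx4, Ptgr1 and Nav2 (0.084, 0.089 and 0.140). For Grin2b they were Ndc1, Rbpj and Serpini1 (0.039, 0.045 and 0.069), and for Grin2c Garnl3, Vcl and Tmem59l (0.050, 0.139 and 0.150). Closeness here rests on 2 ratios from 3 arrays and is smaller than the noise of the dim Grin probe sets. Of the neighbours of Grin2a, Ptgr1 had a two-colour log ratio of 0.71 for D5 over D5+ and Nav2 of 0.31, and those of Grin2c had -0.18, -0.47 and -0.19 in the order given, each with the sign of the subunit it lies near. For D5 over D1 the sign was not kept by Nav2 (-0.25) or by Garnl3 (-0.01).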

How the data were processed

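Signals of 3 Affymetrix rat genome arrays were used as the authors deposited them, as linear intensities made with GCOS and MAS5 whose versions no source used here gives. A scaling to 50th percentiles is stated in the methods, although array medians were 32.9 (D1), 29.2 (D5) and 28.0 (D5+). For the two-colour arrays the authors deposited log ratios, read here as log2 or natural log since no source used here gives their base, normalization or background correction, with 62 and 96 values missing and medians of 0.0057 and 0.0015. Their direction follows the dyes in the labels. Control probe sets were left out. Symbols came from the platform annotation, and a look-up by gene ID in a GRCr8 table changed 0 of them. In all, 20826 probe sets had 1 symbol. Genes with several probe sets are represented by the brightest (mean log2 signal). Signals of 0 were set to 0.1. The floor stands in for detection calls. Noise is the pooled SD of log2 ratios between probe sets of one gene. The calling step was tested on simulated data. Members and lists were chosen with earlier results of these data known. Named genes are all members, up to 4 genes of each list past 2-fold with the largest change and a signal of 50 or more on D1 or D5, and the 3 genes nearest to each member. Some further list genes outside this rule were named after their values were seen. Alternatives were floors at the 20th and 60th percentiles and none, 1.5-fold and 3-fold thresholds, 3 scalings, an added floor and means over probe sets. Python 3.11.15, NumPy 2.4.6, pandas 2.3.3 and matplotlib 3.10.9 were used.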

Additional observations from a re-analysis of the deposited data

How the results depend on the processing

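Of the Grin probe sets, 4 were past 2-fold for D5/D1 and 2 for D5+/D5. For D5/D1 the count was 8 with a floor at the 20th percentile and 8 with none, which lets in the dim Grin2d, Grin3a and Grin3b, 1 with a floor at the 60th percentile (Grin1), 0 at a 3-fold threshold and 2 with the array floors added (Grin1 and Grin2b). For D5+/D5 it was 5 with the 20th percentile, 6 with no floor, and 1 with the 60th percentile, at 3-fold and with the floors added, in each case the brightest Grin2a probe set. Under median and quantile scalings the counts were 5 and 2, the added call being a Grin2a probe set higher on D5. Scaling also moved the share of higher calls among all probe sets past 2-fold, from 40.6% to between 53.6 and 54.0% for D5/D1 and from 38.0% to between 43.6 and 48.5% for D5+/D5. Grin2c against Grin2b was 2.71 as deposited, 1.62 with the floors added and 2.41 over all probe sets. Grin2a against Grin2b stayed between 1.41 and 1.96. No paired analysis was possible because each condition had 1 array. Low signals leave Grin2d, Grin3a and Grin3b unread and limit Grin2b and Grin2c.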

Other observations

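Supply of the co-agonists glycine and D-serine, which NMDA receptors need beside glutamate, was read from 7 genes. Of these, 1 was past 2-fold higher at D5 and 3 were lower, where 9.27% and 11.8% of all genes were. With ICRF-193, 0 of 7 were past 2-fold, where 3.18% of all genes were higher and 5.91% lower. Slc6a9, the glycine transporter GlyT1, had 21.7 at D1, 58.9 at D5 and 56.0 at D5+, but its two-colour log ratio for D5 over D1 was -0.23. Shmt2, the mitochondrial enzyme that makes glycine from serine, had 367.3 at D1, 138.4 at D5 and 122.1 at D5+, and Slc1a5, a transporter of neutral amino acids, had 73.8 at D1, 29.0 at D5 and 23.7 at D5+. The D5 and D5+ signals of these 3 genes lay close together, on the same side of D1.

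Genes named after the receptor but not part of it had ratios short of 2-fold. Grina had 415.7 at D1, 502.8 at D5 and 455.0 at D5+, and Polr2m, once called Grinl1a, had 872.1 at D1, 1125.5 at D5 and 914.1 at D5+ on its brighter probe set. They were looked up after the values of the subunits had been seen.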
